A study of Mus musculus with 6 samples.

Results

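The genes described here are 39 genes of the skeletal muscle sarcomere, of its calcium supply and of its energy supply, out of 22040 genes in the deposited mouse table. They were taken as a fixed list of symbols, drawn up with earlier results of these data known. All 39 were matched to an Ensembl identifier through the GENCODE M21 annotation. The list holds 10 thick filament genes, 8 thin filament genes, 10 genes of the Z-disc, the M-band and titin, 6 calcium genes, 3 energy and oxygen genes and 2 others. Of these, 13 encode fast-fibre isoforms and 6 encode slow-fibre isoforms. The tissue was white adipose, so these genes belong to another tissue than the labelled one. The 3 control libraries, labelled CTR1, CTR2 and CTR3, came from animals given saline into the peritoneum. The 3 treated libraries, labelled Rb1_1, Rb1_2 and Rb1_3, came from animals given ginsenoside Rb1, a saponin of ginseng, by the same route at 14 mg per kg per day. Strain, sex, age, diet, fat depot and length of treatment are not stated in the labels used here, and neither is whether each library came from its own mouse, so p-values here cover only the spread among the libraries.

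A skeletal muscle fibre shortens when myosin heads of the thick filament pull on actin of the thin filament within a repeated unit, the sarcomere. Calcium released from the sarcoplasmic reticulum binds troponin and frees actin for myosin, and a calcium pump then ends the contraction. Mouse fibres differ in the myosin heavy chain they use: slow type I fibres use Myh7, and the fast types IIa, IIx and IIb use Myh2, Myh1 and Myh4. Type IIb fibres are the fastest and the least oxidative, whereas type IIa fibres are rich in mitochondria and myoglobin. Fast and slow fibres also use different light chains, troponins and calcium pumps.

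The 3 adult fast myosin genes lie in a row on the forward strand of chromosome 11 (GRCm38), and their reads went in different directions across the libraries. In GENCODE M21, Myh2 spans chr11:67171027-67197517, Myh1 spans chr11:67200052-67224575 and Myh4 spans chr11:67238029-67260446, with gaps of 2534 and 13453 bases between them. The sequences below, from RefSeq on GRCm38.p6, forward strand, show where the neighbours differ just before their starts. Each runs 200 bases, from 250 to 51 bases before the RefSeq start, and capitals mark matches to an E-box (CANNTG), a MEF2 motif or a CArG motif. All of these motifs read the same on both strands.
Myh2, chr11:67170777-67170976: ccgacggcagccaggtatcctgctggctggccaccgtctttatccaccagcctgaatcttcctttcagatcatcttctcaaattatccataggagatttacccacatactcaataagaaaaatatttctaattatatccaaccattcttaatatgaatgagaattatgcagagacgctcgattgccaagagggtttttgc
Myh1, chr11:67199852-67200051: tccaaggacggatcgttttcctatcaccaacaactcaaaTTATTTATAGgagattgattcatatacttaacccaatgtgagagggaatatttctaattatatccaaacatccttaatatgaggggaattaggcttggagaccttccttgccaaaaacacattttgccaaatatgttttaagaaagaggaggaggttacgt
Myh4, chr11:67237562-67237761: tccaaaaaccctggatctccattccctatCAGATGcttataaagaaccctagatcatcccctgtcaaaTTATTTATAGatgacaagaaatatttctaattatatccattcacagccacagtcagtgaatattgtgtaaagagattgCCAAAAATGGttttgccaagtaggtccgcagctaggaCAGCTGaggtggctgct

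In the 250 bases before the start, Myh4 held 2 E-boxes, a MEF2 match and a CArG match. Myh1 held the MEF2 match alone, with the same 10 letters as in Myh4, and Myh2 held none of the motifs. A run of 20 bases, aatatttctaattatatcca, stood in all 3 windows. An E-box was present in 66.2% of the 32851 promoter windows in the RefSeq table, a MEF2 match in 2.92% and a CArG match in 1.47%. Of the 39 muscle genes, 29 had an entry there, with 36 windows. An E-box was found in 83.3% of these windows, a MEF2 match in 13.9% (Myh1, Myh4, Pvalb, Ttn and Xirp2) and a CArG match in 16.7% (Acta1, Ldb3, Myh4, Myl3 and Myom1). The matches describe letters only, and no binding was measured.

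Library totals lay between 15440339 and 24501446 counts. CTR2 stood apart in its muscle reads: the 39 genes took 4.06% of its counts (953457 counts), against 0.0663% in CTR1, 0.0669% in CTR3, 0.0320% in Rb1_1, 0.00962% in Rb1_2 and 0.0152% in Rb1_3. Markers of white adipocytes, 10 of 10 tested, summed to between 25854 and 32830 CPM (counts scaled to the library total) in every library, with 26814 in CTR2. Cardiac markers summed to between 25.8 and 44.6 CPM, and Myh6, Myl7, Nppa and Nppb, which define heart muscle, were at 0 counts in all 6 libraries. Smooth muscle markers summed to between 1316 and 1964 CPM, with the highest sum in CTR2. Only 2 of these 10 genes were highest in CTR2, and their median ratio to the mean of CTR1 and CTR3 was 1.06. The largest ratio, 14.0, was that of Des, which all muscle carries. The counts and medians of the comparison between Rb1 and control are given below with and without CTR2. In a bulk sample, fewer fibres and less RNA per fibre cannot be told apart.

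**Figure D1:**
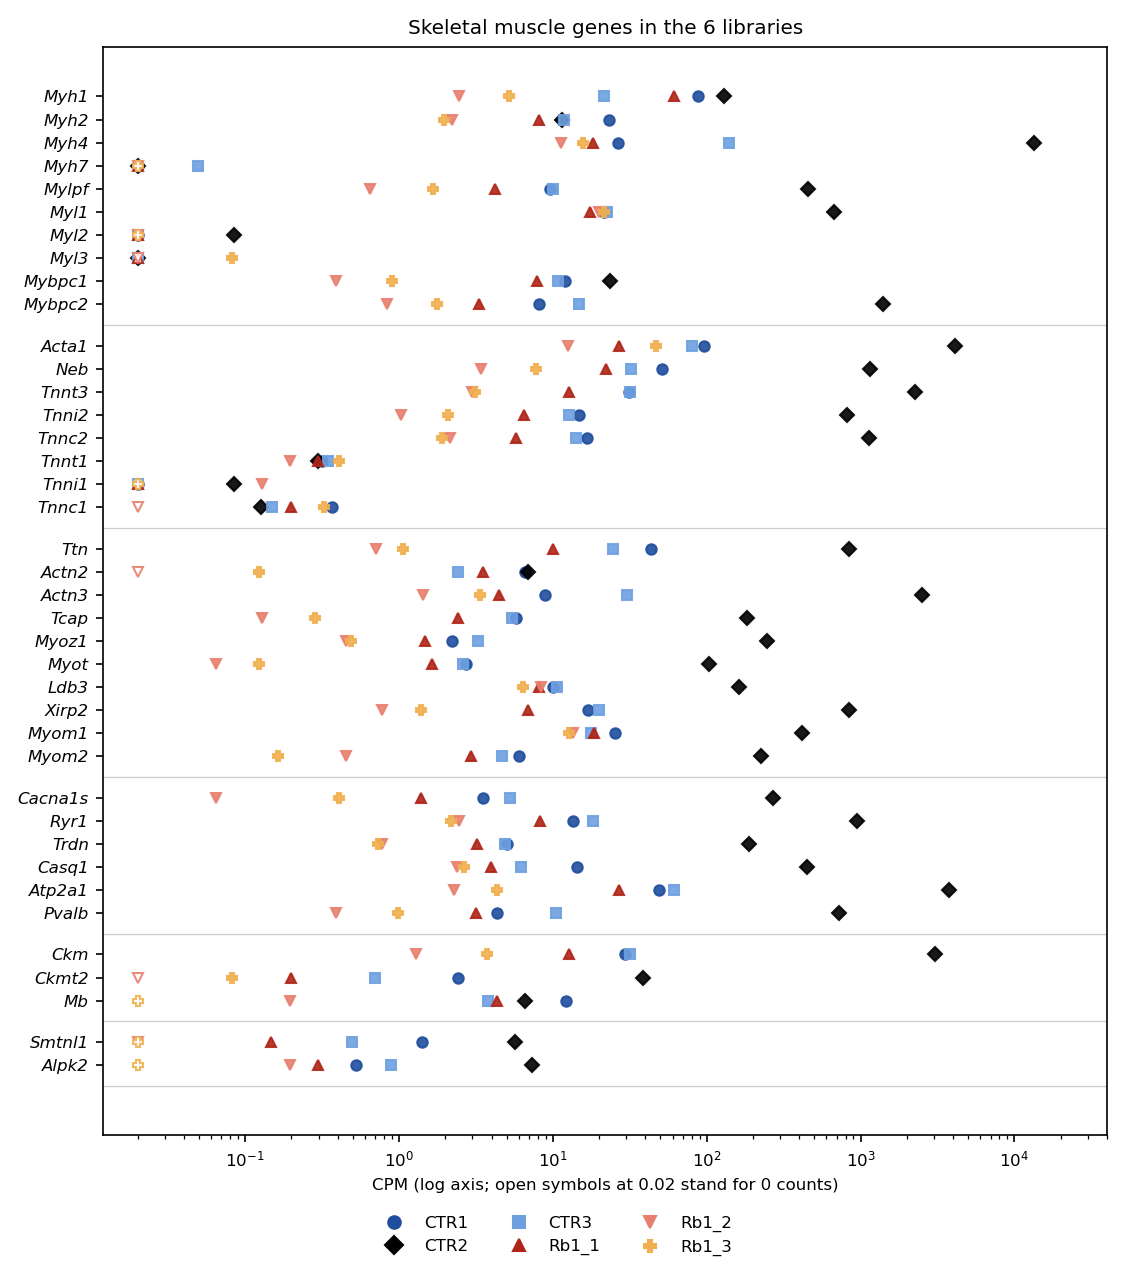
CPM of the 39 muscle genes in each library on a log axis, with genes in blocks of role from thick filament (top) to other genes (bottom); open symbols drawn at 0.02 stand for 0 counts. CTR2 lies to the right of the other libraries for most genes, for example at 13366 CPM for Myh4, but among them for Myh2 and Mb.

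Thick filament genes were read in the fast form. Myh4, the type IIb heavy chain, had 26.6 CPM in CTR1, 13366 in CTR2, 140.3 in CTR3, 18.2 in Rb1_1, 11.3 in Rb1_2 and 15.7 in Rb1_3. It alone supplied 314218 counts of CTR2, and CTR2 stood at 160.1 times the mean of CTR1 and CTR3. The control mean of 4511 ± 7669 CPM (SD, n = 3) rests on that library, while the Rb1 libraries averaged 15.05 ± 3.505 CPM (SD, n = 3). Mybpc2, the fast myosin binding protein C that ties the heads to the filament, had 8.11, 1399 and 14.8 CPM in the controls and 3.31, 0.842 and 1.75 CPM in the Rb1 libraries. Its excess in CTR2 was 122-fold. Mylpf, the fast regulatory light chain, had 9.62, 459.0 and 10.1 CPM in the controls and 4.20, 0.648 and 1.67 CPM with Rb1. For all of these genes the controls lay above the Rb1 libraries with no overlap. Myl1, the fast essential light chain, had 21.6, 674 and 22.4 CPM in the controls, and its Rb1 libraries (17.5, 20.01 and 21.5 CPM) reached to just below CTR1.

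Thin filament genes followed the same order. Acta1, the skeletal alpha-actin that forms the filament, had 95.5, 4131 and 80.5 CPM in the controls and 27.0, 12.5 and 46.8 CPM in the Rb1 libraries. Per length it was the highest of the 39 genes in CTR2, at 2689.7 FPKM (counts scaled to gene length and library total), ahead of Myh4 at 2067 FPKM and Tnnc2 at 1427 FPKM. Tnnc2, the fast troponin C that binds calcium, had 16.7, 1141 and 14.2 CPM in the controls and 5.78, 2.14 and 1.92 CPM with Rb1. Tnnt3, the fast troponin T that anchors the complex to tropomyosin, had 31.4, 2257 and 31.6 CPM and then 12.7, 2.98 and 3.10 CPM. Tnni2, the fast inhibitory troponin, had 14.9, 812 and 12.7 CPM and then 6.53, 1.04 and 2.08 CPM. Neb, the ruler along the thin filament, had 51.2, 1153 and 32.2 CPM and then 22.3, 3.43 and 7.75 CPM. In all of these the groups did not overlap, and CTR1 and CTR3 were close to each other for the 3 troponins.

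The slow isoforms were nearly absent in every library, CTR2 included. Myh7, the type I heavy chain, had 1 count in all, in CTR3. Myl2, the slow regulatory light chain, had 2 counts, both in CTR2, and Myl3, the slow essential light chain, had 2 counts, both in Rb1_3. Tnni1, the slow inhibitory troponin, had 2 counts in CTR2 and 2 in Rb1_2. Tnnc1, the troponin C of slow and cardiac muscle, had 7, 3 and 3 counts in the controls and 4, 0 and 8 with Rb1. Tnnt1, the slow troponin T, had 6, 7 and 7 counts in the controls and 6, 3 and 10 with Rb1. A count of 0 allows up to 3 counts, which is 0.122 to 0.194 CPM depending on the library. None of the 6 slow genes had enough counts to be tested between the groups.

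The summed counts show the contrast. The 13 fast genes had 5823 counts in CTR1, 646818 in CTR2, 7758 in CTR3, 3510 in Rb1_1, 743 in Rb1_2 and 1568 in Rb1_3. The 6 slow genes had 13, 14, 11, 10, 5 and 20 counts in the same order. Fast counts in CTR2 were thus far above every other library, while slow counts there were 14. Over 6 matched pairs (Myh4 with Myh7, Mylpf with Myl2, Myl1 with Myl3, and 3 troponin pairs) the fast to slow ratio of summed FPKM was 155.8 in CTR1, with an approximate 95% interval of 91.1 to 292.5. The ratio was 22842 (13614 to 41780) in CTR2 and 328 (183 to 657) in CTR3. It was 111 (60.2 to 231) in Rb1_1, 143 (61.1 to 439) in Rb1_2 and 38.2 (24.7 to 62.5) in Rb1_3. These intervals carry the counting error of the summed slow counts alone. They weigh all slow counts alike, whatever the gene length, and leave out error in the fast counts and biological spread. Fast isoforms led in all 6 libraries, and the interval of CTR2 did not touch that of any other.

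Z-disc and M-band genes were mixed. Actn3, the alpha-actinin of fast fibres that crosslinks actin at the Z-disc, had 8.94, 2511 and 30.2 CPM in the controls and 4.45, 1.43 and 3.35 CPM with Rb1. Actn2, an alpha-actinin of skeletal muscle and the heart, had 6.59, 6.89 and 2.43 CPM in the controls and 3.51, 0 and 0.122 CPM with Rb1. Actn3 was thus 128-fold above the other controls in CTR2, while Actn2 was 1.53-fold above them. Ttn, the giant spring from Z-disc to M-band, had 43.4, 836 and 24.5 CPM in the controls and 10.1, 0.712 and 1.06 CPM with Rb1. Xirp2, which binds actin at sites of repair, had 16.9, 839 and 20.1 CPM in the controls and 6.92, 0.777 and 1.39 CPM with Rb1. Both had every control above every Rb1 library. Tcap (titin cap), Myoz1 (a calcineurin-binding Z-disc protein of fast fibres), Myot (myotilin) and Myom2 (an M-band protein) were 32.5-fold, 90.6-fold, 38.7-fold and 41.6-fold higher in CTR2 than in the mean of CTR1 and CTR3. Ldb3, a Z-disc scaffold, had 10.1, 162 and 10.6 CPM in the controls and 8.16, 8.42 and 6.37 CPM with Rb1. Myom1, the main M-band crosslinker, had 25.4, 417 and 17.7 CPM in the controls and 18.4, 13.5 and 12.7 CPM with Rb1, so that Rb1_1 lay above CTR3.

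Calcium genes were all high in CTR2, with excesses of 37.8-fold to 97.6-fold. Atp2a1, the calcium pump of fast fibres, had 49.1, 3778 and 60.9 CPM in the controls and 27.0, 2.27 and 4.37 CPM with Rb1. Ryr1, the release channel of the sarcoplasmic reticulum, had 13.5, 948 and 18.3 CPM and then 8.31, 2.46 and 2.16 CPM. Cacna1s, the voltage sensor that opens Ryr1, had 3.50, 269.5 and 5.30 CPM and then 1.38, 0.0648 and 0.408 CPM. Pvalb, the calcium buffer of the fastest fibres, had 4.34, 727 and 10.6 CPM and then 3.16, 0.389 and 0.980 CPM. Casq1, which stores calcium inside the reticulum, had 14.4, 452 and 6.19 CPM and then 3.96, 2.40 and 2.65 CPM. Trdn, which links the store to the release channel, had 5.07, 188 and 4.86 CPM and then 3.21, 0.777 and 0.735 CPM. In each of these 6 genes all controls exceeded all Rb1 libraries.

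Energy genes split. Ckm, the cytosolic creatine kinase of muscle, had 29.3, 3049.8 and 31.8 CPM in the controls and 12.8, 1.30 and 3.76 CPM with Rb1, a 99.8-fold excess in CTR2. Ckmt2, the mitochondrial creatine kinase, had 2.41, 38.5 and 0.694 CPM in the controls and 4, 0 and 2 counts with Rb1. Mb, the oxygen store myoglobin, had 12.2, 6.64 and 3.82 CPM in the controls and 4.35, 0.194 and 0 CPM with Rb1. Its highest library was CTR1, and Rb1_1 lay above CTR3. Of the remaining genes, Smtnl1, a smoothelin-like protein of muscle, had 27, 134 and 10 counts in the controls and 3, 0 and 0 with Rb1. Alpk2, an alpha-kinase, had 10, 171 and 18 counts in the controls and 6, 3 and 0 with Rb1.

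**Figure D2:**
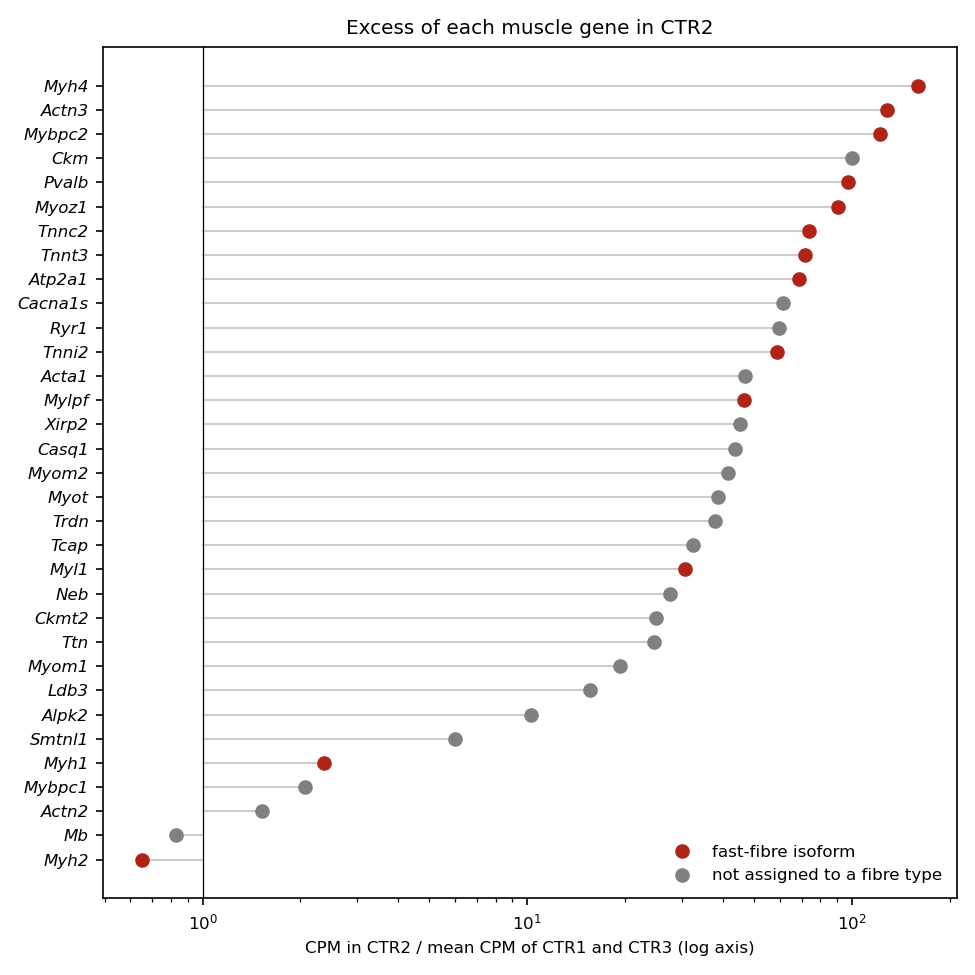
Ratio of the CPM in CTR2 to the mean CPM of CTR1 and CTR3 (log axis) for the 33 muscle genes that passed the expression filter, ordered by ratio, with fast-fibre isoforms in red. The ratio runs from 0.652 for Myh2 to 160.1 for Myh4, and Myh1 is the other fast isoform below 10.

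Of the 33 genes that passed the filter, 31 had their highest CPM in CTR2, where 16.8% of all 14093 genes tested did. The excess over the mean of CTR1 and CTR3 was above 10-fold for 27 of the 33, where 0.745% of all genes tested were. The median excess was 41.6-fold for the 33 genes, 71.7-fold for the 13 fast genes and 0.983-fold for all genes tested. These shares describe 1 library against the others of its group and have no replicate. The list was drawn up with earlier results of these data known, so the shares are a description and not a test. The 6 genes under 10-fold were Smtnl1 (5.98-fold), Myh1 (2.37-fold), Mybpc1 (2.06-fold), Actn2 (1.53-fold), Mb (0.827-fold) and Myh2 (0.652-fold). Myh1, the type IIx chain, had 87.9, 129.6 and 21.7 CPM in the controls and 61.1, 2.46 and 5.18 CPM with Rb1. Myh2, the type IIa chain, had 23.1, 11.4 and 11.8 CPM in the controls and 8.16, 2.20 and 1.96 CPM with Rb1. Mybpc1, the slow-type myosin binding protein C that fast fibres also carry, had 11.9, 23.4 and 10.7 CPM in the controls and 7.86, 0.389 and 0.898 CPM with Rb1. For Myh1, Mybpc1, Actn2 and Mb, Rb1_1 stood well above Rb1_2 and Rb1_3. Myh2 averaged 15.45 ± 6.64 CPM (SD, n = 3) in the controls and 4.11 ± 3.51 CPM (SD, n = 3) with Rb1.

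Partner genes of the same role separated accordingly. Per length, Myh4 stood to Myh1 as 0.337 in CTR1, 115 in CTR2, 7.21 in CTR3, 0.331 in Rb1_1, 5.10 in Rb1_2 and 3.37 in Rb1_3. CTR1 and Rb1_1 were the only libraries with more Myh1 than Myh4. Mybpc2 to Mybpc1, also in FPKM, was 0.996, 87.6 and 2.02 in the controls and 0.618, 3.18 and 2.86 with Rb1. Actn3 to Actn2 was 2.24, 603 and 20.6 in the controls, 2.10 in Rb1_1 and 45.2 in Rb1_3, with Actn2 at 0 in Rb1_2. CTR1 and Rb1_1, of different groups, thus had the lowest ratio in each of these pairs where a ratio could be formed. Of the 3 adult fast chains summed in FPKM, Myh1 made up 63.0% in CTR1 and 68.6% in Rb1_1, against 0.863% in CTR2, 11.5% in CTR3, 14.4% in Rb1_2 and 21.2% in Rb1_3. Myh4 made up 21.2%, 99.1% and 82.6% in the controls and 22.7%, 73.4% and 71.2% with Rb1. Myh2 lay between 5.94% and 15.7% outside CTR2 and was 0.0720% there. These shares carry a limit of sequence: 26.7% of the stretches of 50 bases in the Myh1 transcript and 26.9% of those in Myh2 also occur in another gene's transcript, most often in each other, and 18.9% in Myh4. The treatment of reads that fit more than 1 gene is not known here.

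**Figure D3:**
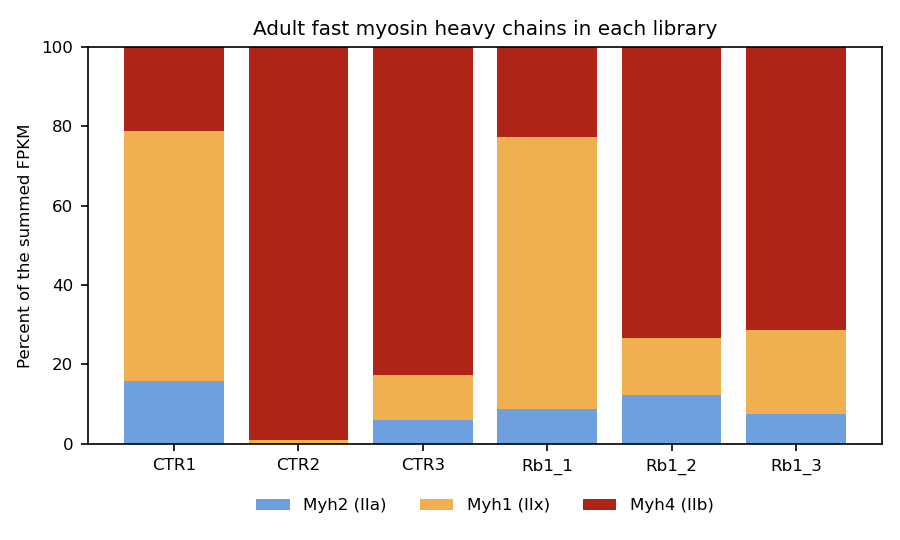
Share of Myh2, Myh1 and Myh4 in the summed FPKM of the 3 genes (percent, stacked bars) in each library. CTR1 and Rb1_1 are mostly Myh1 (63.0% and 68.6%), CTR2 is 99.1% Myh4, and the other 3 libraries are 71.2% to 82.6% Myh4.

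CTR1 and CTR3, which had nearly the same muscle share of counts, differed in which muscle genes made it up. Myh4 was 5.27-fold higher in CTR3 than in CTR1 (exact 95% interval 4.80 to 5.81), Actn3 was 3.38-fold higher (2.85 to 4.03), Pvalb 2.43-fold (1.88 to 3.17) and Mybpc2 1.83-fold (1.50 to 2.23). Myh1 was at 0.246 of its CTR1 level (0.221 to 0.274), Mb at 0.312 (0.238 to 0.405), Actn2 at 0.369 (0.259 to 0.517) and Myh2 at 0.513 (0.436 to 0.601). The intervals cover counting error between these libraries and no biological spread. Over the 33 genes, 8 intervals lay above 1, 12 lay below 1 and 13 held 1. Genes with a larger excess in CTR2 tended to be higher in CTR3 than in CTR1: across the 33 genes the log2 ratios had a Pearson correlation of 0.677 and a Spearman correlation of 0.717. Both ratios use CTR1 and CTR3, and genes are not independent replicates, so this is a description without a test.

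**Figure D4:**
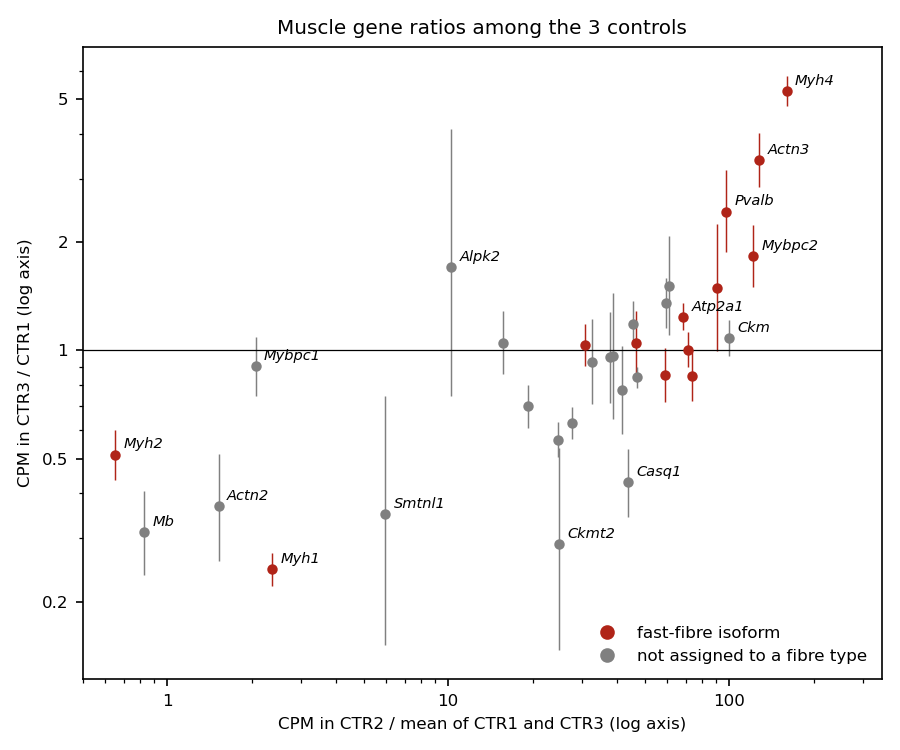
CPM in CTR3 over CTR1 (vertical, log axis, bars give the exact 95% counting interval) against CPM in CTR2 over the mean of CTR1 and CTR3 (horizontal, log axis) for the 33 genes. Myh4, Actn3, Pvalb and Mybpc2 lie at the upper right, and Myh1, Myh2, Mb and Actn2 at the lower left.

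Between Rb1 and control, 29 of the 33 genes had all 3 controls above all 3 Rb1 libraries, where 10.5% of all genes tested did. None had the reverse, where 5.48% did. Because the list was drawn up with earlier results of these data known, these shares describe the genes and do not test them. Ckmt2, Smtnl1 and Alpk2 passed the filter on low counts through the controls alone, so for these 3 genes the direction was set by the filter. Tcap, Myoz1, Myot, Myom2, Cacna1s, Actn2 and Mb had only Rb1_1 above the filter's cutoff among the Rb1 libraries. They passed mainly through the controls, so the filter favoured their direction too. Of the 30 genes other than Ckmt2, Smtnl1 and Alpk2, 26 had groups that did not overlap. The 4 genes whose groups overlapped were Myh1, Actn2, Mb and Myom1. With CTR2 set aside, CTR1 and CTR3 were above every Rb1 library again for 29 of 33, where 15.0% of all genes tested were. Without CTR2, the mean of CTR1 and CTR3 was a median of 4.47-fold above the Rb1 mean over the 32 genes with a ratio, which leaves out Smtnl1. That median still includes Ckmt2 and Alpk2. The 29 of 33 with CTR2 set aside includes all 3 genes whose direction was set by the filter. The Rb1 libraries were themselves uneven: Rb1_1 was the highest of them for 30 of the 33 genes, and the lowest library of all was Rb1_2 for 23 and Rb1_3 for 9. Over the 25 genes with at least 4 counts in each, the highest Rb1 library was a median of 4.25-fold above the lowest. This spread was widest for Myh1 (24.8-fold), Mybpc1 (20.2-fold), Myom2 (17.9-fold) and Ttn (14.2-fold). It was under 2-fold for Myl1 (1.23-fold), Ldb3 (1.32-fold), Myom1 (1.45-fold), Myh4 (1.61-fold) and Casq1 (1.65-fold).

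No muscle gene passed the threshold of an adjusted p of 0.05 in edgeR's quasi-likelihood test over 14093 genes. The background for lower calls was 0% and for higher calls 0.00710%. At an unadjusted p under 0.05, edgeR placed 30 of the 33 genes lower with Rb1, where 7.54% of all genes tested were lower, and none higher, where 4.01% were. Ckmt2, Smtnl1 and Alpk2 are among the 30, and without these 3, whose direction the filter set, 27 of 30 genes were placed lower. That count still holds genes with only Rb1_1 above the filter's cutoff among the Rb1 libraries. The list was also drawn up with earlier results of these data known, so these shares are a description. All 33 fitted log2 fold changes were negative, with a median of -6.06, against 0.01 over all genes tested. Without CTR2 all 33 stayed negative with a median of -2.14, and 24 of 33 had an unadjusted p under 0.05 in edgeR, against 5.68% of all genes tested. The count was 21 of 33 without Rb1_2, against 6.16% of all genes, and 17 of 33 without Rb1_3, against 5.44%. All counts and medians over the 33 genes include Ckmt2, Smtnl1 and Alpk2, so part of them was set by the filter. The 13 fast genes had a median of -6.87, and of -2.20 without CTR2. Myh4 had a log2 fold change of -8.20 (SE 2.40, edgeR adjusted p = 0.290) and of -2.46 without CTR2 (edgeR adjusted p = 0.425). Myh1 had -1.81 (SE 1.15, edgeR adjusted p = 0.611) and -1.24 without CTR2. Myh2 had -1.89 (SE 0.56, edgeR adjusted p = 0.292) and -2.05 without CTR2. Leaving out Rb1_1 took Myh1 to -4.26, Mybpc1 from -2.33 to -4.42, Actn2 from -2.12 to -5.98 and Mb from -2.30 to -6.39. None of them had an adjusted p under 0.05 in edgeR. In Rb1_2 and Rb1_3, Actn2 had 0 and 3 counts and Mb had 3 and 0. Without Rb1_1 both passed the filter through the controls alone, so the filter set their direction there. The size of these values rests on those low counts.

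Myl1, Ldb3 and Myom1 came closest to 0 without CTR2. Their log2 fold changes were -3.57, -2.97 and -3.34 with all libraries and -0.11, -0.39 and -0.49 without CTR2. In CTR1 and CTR3 these 3 genes were 1.12-fold, 1.35-fold and 1.45-fold above the Rb1 mean. Per length, Myl1 stood to its partner Mylpf as 1.19, 0.777 and 1.17 in the controls and as 2.20, 16.3 and 6.78 in Rb1_1, Rb1_2 and Rb1_3. Myl1 thus stood at 5.26 to 6.72 FPKM in all libraries but CTR2 while Mylpf ranged from 0.368 to 5.72 FPKM over the same 5. In the Myl1 transcript 23.4% of the stretches of 50 bases also occur elsewhere, in the pseudogene Mylf-ps. Myom1 shares exon positions with Myl12a on the opposite strand, and 20 of the 39 genes share them with some gene there. Whether the counting used strand is not known here.

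**Figure D5:**
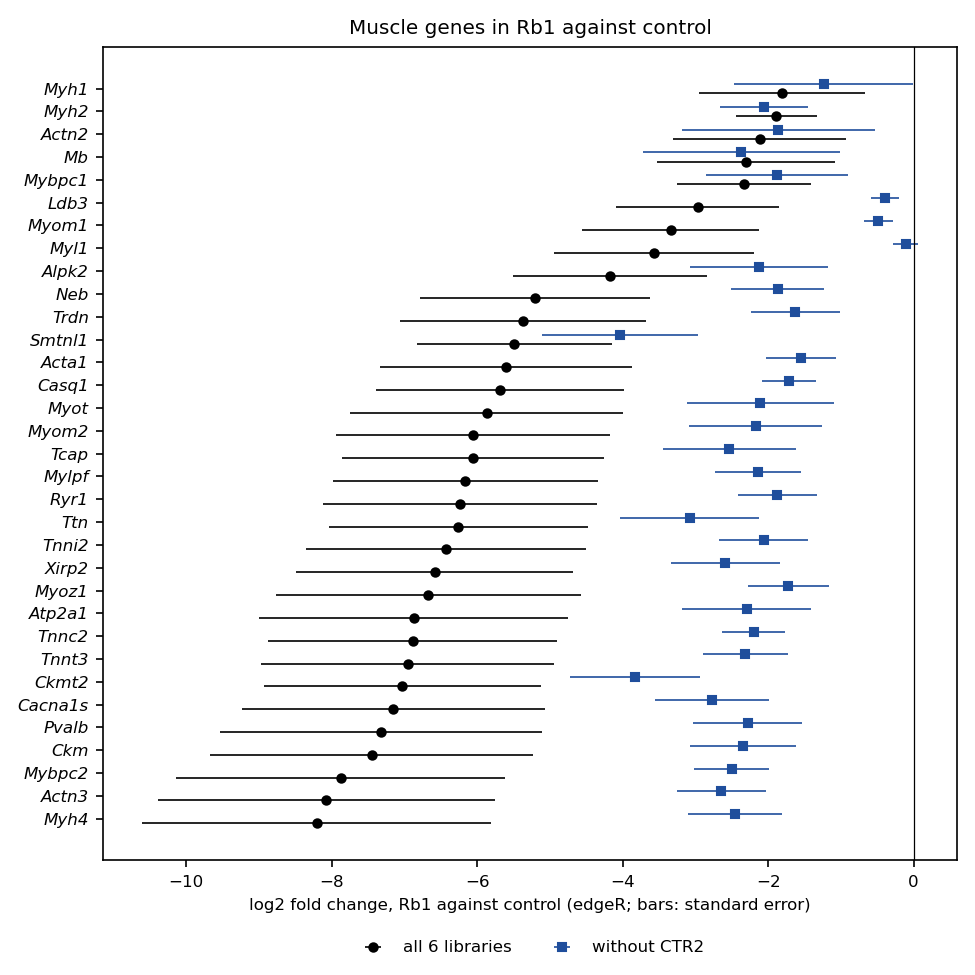
Fitted log2 fold change of Rb1 against control with its standard error (edgeR) for the 33 genes, with all 6 libraries (black) and without CTR2 (blue). All values are negative in both fits, and they include Ckmt2, Smtnl1 and Alpk2, whose direction was set by the filter. Myl1, Ldb3 and Myom1 move to between -0.49 and -0.11 without CTR2.

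DESeq2, run as the alternative tool, called 299 of 13979 genes lower (2.14%) and 81 higher (0.579%). It gave an adjusted p to 8 of the 39 muscle genes and called 4 of them lower: Smtnl1 (adjusted p = 0.00216), Ckmt2 (0.00704), Myh2 (0.0185) and Alpk2 (0.0230). The other 31 received none. Only 14 of the 39 had an unadjusted p in DESeq2. Every gene without one was over 10-fold higher in CTR2 than in the mean of CTR1 and CTR3. The 8 genes thus leave out most of those with a large excess in CTR2. Among the 4 called, Smtnl1, Ckmt2 and Alpk2 had low counts with Rb1 and passed the edgeR filter through the controls alone. Smtnl1 had 171 control counts against 3 with Rb1, a ratio of library-scaled counts of 54.6 (exact 95% interval 18.4 to 267). This interval pools the libraries of each group, so it covers counting error only and not the spread among libraries. Of the control counts 134 came from CTR2, and the edgeR log2 fold change was -5.49 with CTR2 and -4.04 without it. Without CTR2, a setting chosen after seeing the data, DESeq2 called 142 genes lower (1.01%) and 33 higher (0.236%). It then gave an adjusted p to 31 of the muscle genes and called 6 lower, namely Tnnc2, Mybpc2, Actn3, Tnnt3, Casq1 and Xirp2.

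Other genes of the sarcomere behaved in more than one way. Of 20 listed, 15 were tested and none was called by edgeR, with a median log2 fold change of -3.94 and 15 of 15 negative. Without CTR2 the median was -0.80, with 13 of 15 negative. Nrap, a thin filament scaffold, had 9.62, 195 and 9.12 CPM in the controls and 4.20, 0.842 and 0.449 CPM with Rb1. Mypn, a titin-binding Z-disc protein, and Lmod3, a nucleator of actin, were 65.8-fold and 22.5-fold higher in CTR2 than in the mean of the other controls. Myom3, the M-band protein of slower fibres, was at 0.447 of that mean, with 30.2, 12.8 and 27.3 CPM in the controls and 21.5, 19.1 and 25.2 CPM with Rb1; it was chosen after its values were seen.

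Other calcium and coupling genes had 13 of 16 members tested, a median of -1.19 and 10 negative, and a median of -0.18 with 8 negative without CTR2. Hrc, a calcium-binding protein of the reticulum, Jsrp1, a junctional protein, and Stac3, a partner of the voltage sensor, were 42.6-fold, 35.7-fold and 26.4-fold higher in CTR2. Atp2a2, the calcium pump of slow, cardiac and non-muscle cells, had 212.5, 211 and 194 CPM in the controls and 279, 251 and 235 CPM with Rb1 (log2 fold change 0.35, SE 0.10, edgeR adjusted p = 0.271). Energy enzymes of muscle had 12 of 14 tested with a median of -1.37 and 11 negative, and a median of -0.09 with 7 negative and 5 positive without CTR2. Pygm, the muscle glycogen phosphorylase, had 16.6, 1401 and 19.2 CPM in the controls and 13.5, 5.57 and 7.06 CPM with Rb1, and Pgam2, Eno3 and Cox6a2 were 67.2-fold, 49.9-fold and 21.8-fold higher in CTR2. None of these lists had a gene called by edgeR.

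Most regulators of muscle were too low to be tested. Of 14 myogenic and satellite cell genes 4 were tested, with a median of -0.86, or -0.09 without CTR2, and none called by edgeR. Mef2c, a factor that binds the MEF2 motif and is also used in other cells, had 40.8, 116 and 55.2 CPM in the controls and 19.9, 22.7 and 16.3 CPM with Rb1 (log2 fold change -1.81, SE 0.40, edgeR adjusted p = 0.199), and without CTR2 its log2 fold change was -1.25 (edgeR adjusted p = 0.279). Musk, a receptor of the synapse, and Megf10, a satellite cell receptor, were 6.40-fold and 1.47-fold above the other controls in CTR2. Pax3, Mymk and Mymx, which mark muscle precursors and their fusion, were at 0 counts in all libraries. Mstn, the growth inhibitor of muscle in the series title, had 0.941, 13.8 and 0.496 CPM in the controls and 0, 0 and 0.0408 CPM with Rb1, a 19.2-fold excess in CTR2 that lies below the median of the 33 genes.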

How the data were processed

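RNA from white adipose tissue of 3 control and 3 Rb1 libraries was sequenced on Illumina libraries, per the labels' protocols. CASAVA 1.8, TopHat2 2.0.6 and mm10 are listed in the submitters' processing notes, while counting tool, annotation and strand setting are not given in these sources. Per the file headers, the authors deposited counts per Ensembl gene and FPKM values. FPKM equalled count over a gene length and the column total, to 0.00984% for 13169 genes. Totals were 15440339 to 24501446 counts, so 3 counts are 0.122 to 0.194 CPM. CPM used the column total. Rb1 was compared with control by edgeR 4.0.16 (R 4.3.3, TMM, filterByExpr, quasi-likelihood, Benjamini-Hochberg over 14093 genes). A check on simulated data used the same dispersion for all genes and no outlying library. It therefore does not cover genes with an excess such as that in CTR2. Alternatives were DESeq2 1.42.0, other scalings, no filter, a replicate block and leaving out each library. Names and positions came from GENCODE M21 (GRCm38), promoters from RefSeq. Intervals of count ratios are exact and cover counting error only. Those of the fast to slow ratio are approximate and rest on the summed slow counts alone. The members and lists were chosen with earlier results of these data known. All 39 genes are named, with up to 4 genes of each other list by smallest edgeR p, list markers at 0, and 8 protein-coding genes outside the lists by their ratio in CTR2. These 8 were taken among genes with a control mean of at least 1 CPM and a count in CTR1 or CTR3. Aldoa matched 2 identifiers and has no value. Some genes that this rule picks are not reported here.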

Additional observations from a re-analysis of the deposited data

How the results depend on the processing

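edgeR called 1 gene and 0 muscle genes with TMM, with relative log expression factors, with library totals and with no filter. With the replicate block edgeR also called 1 gene and 0 muscle genes. In that fit 11 of the 33 had an unadjusted p under 0.05 (6.93% of all genes tested) in place of 30. Ckmt2, Smtnl1 and Alpk2, whose direction was set by the filter, are among the 11. Same-numbered libraries had correlations of 0.136, -0.0599 and -0.0156 in their deviations from the group means. With so few libraries per group, these values cannot decide whether the numbers pair them. Leaving out 1 library at a time gave 1 to 4 genes (3 without Rb1_1, 4 without Rb1_2, 2 without Rb1_3) and 0 to 0 muscle genes. DESeq2 called 380 genes, 4 of them muscle genes, and 175 and 6 without CTR2; the cause was not tested. Of 338 single-gene values under the alternatives, 334 kept direction and side of the threshold, 4 passed it with DESeq2 and none reversed. Values without an adjusted p are left out of this tally, so DESeq2 gave only 8 of the 338, and 4 of those 8 changed side. The rest are edgeR fits, which called at most 4 genes of the whole table. Staying on the same side of the threshold there says little about how stable the values are. Without genes under 10 counts the fast to slow ratio of Rb1_3 was 120.5, since fewer slow genes remain in it; the other 5 libraries had no slow gene at that depth and gave no value. For a slow isoform at 0 counts, depth allows up to 3 counts.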

Other observations

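Outside every list, the 8 protein-coding genes with the largest ratio in CTR2 were Cacng6, Gm28551, Smco1, Hhatl, Dhrs7c, Tmem233, Mylk4 and Klhl31. The ratio needs a count in CTR1 or CTR3, so genes with none in either were left out. Cacng6, a calcium channel subunit of skeletal muscle, had 414 counts in CTR2 (17.6 CPM), 1 in CTR3 and 0 in the other 4 libraries. Gm28551 and Smco1 had 184 and 120 counts in CTR2 and 1 count each in all the others together. Hhatl had 13.1 CPM in CTR2 and at most 4 counts in any other library. Mylk4, a myosin light chain kinase, had 2.61, 340.5 and 5.30 CPM in the controls and 1.29, 0.130 and 0.531 CPM with Rb1. Dhrs7c, Tmem233 and Klhl31 were 92.1-fold, 88.3-fold and 85.9-fold higher in CTR2 than in the mean of the other controls.

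Some low genes of the lists, chosen after their values were seen, were far higher in CTR2, and others were not. Myh8, the perinatal myosin heavy chain, had 5, 1099 and 13 counts in the controls and 3, 0 and 5 with Rb1. Its transcripts share stretches of 50 bases with Myh4, which had 314218 counts in CTR2. Whether the Myh8 counts there came from Myh4 reads was not tested. Ampd1, the muscle AMP deaminase, had 3, 3706 and 54 counts and then 6, 2 and 4. Myf6 and Myod1, factors of the muscle lineage, had 237 and 81 counts in CTR2 and at most 8 in any other library, and Pax7, which marks satellite cells, had 10 counts, all in CTR2. Csrp3, Ankrd2, Myoz2 and Sln, which are typical of slow or oxidative muscle, had 12, 0, 0 and 0 counts in CTR2 and 17, 5, 1 and 4 in CTR1. Counts this low cannot show a loss in CTR2, and the other libraries are not given here. Casq2, the calsequestrin of slow and cardiac muscle, had 2.20, 3.11 and 5.75 CPM in the controls and 1.93, 2.46 and 1.71 CPM with Rb1. Its CTR2 value thus lay between CTR1 and CTR3.

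Smooth muscle and adipocyte genes gave no called gene in edgeR. Medians of the log2 fold change were 0.15 over 10 smooth muscle genes, 0.06 over 10 white adipocyte genes and -0.76 over 7 brown adipocyte genes. Without CTR2 they were 0.27, 0.0001 and 0.05. Des, the intermediate filament of all muscle, was 14.0-fold higher in CTR2, while Tagln, Myh11 and Smtn were at 1.07-fold, 1.06-fold and 0.870-fold. The list of 5 developmental myosins had 1 gene tested, Myl4, with a log2 fold change of 0.05. Cardiac markers had 4 tested with a median of -0.45, or -0.34 without CTR2.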
